A study of Rattus norvegicus with 25 samples.

Results

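The common limb of rats after Roux-en-Y gastric bypass (RYGB) was compared with the ileum of sham-operated rats. Members were chosen by label: the 3 libraries titled RYGB_CL and the 3 titled Sham_IL, 6 of the 25 RNA libraries of the series, and all Ensembl rat gene IDs counted in them. Every group here is total RNA of rat intestine. RYGB_CL is common limb after RYGB surgery, with library numbers 1-1, 2-3 and 15-29, and Sham_IL is ileum after sham surgery, with numbers 8-15, 14-28 and 15-30. For reference, 6 further libraries of the same cohort held the alimentary limb (RYGB_AL, RYGB surgery, numbers 1-1, 2-3 and 15-29) and the sham jejunum (Sham_JEJU, sham surgery, numbers 8-15, 14-28 and 15-30). The sources used here give no strain, sex, age, diet or time since surgery for this cohort, nor the distance along the gut at which a segment was taken. The submitters' design text counts the RYGB limbs as glucotonic and the sham segments as non-glucotonic tissue. Descriptions of all RYGB libraries in this cohort end in Pos, a suffix that no sham library has and that the labels do not explain, so a selection of tissue it may stand for and surgery cannot be told apart.

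RYGB leaves a small stomach pouch that empties through a stretch of jejunum, the alimentary limb, while bile and pancreatic juice run down a separate biliopancreatic limb. Both join at the start of the common limb, so this segment is the first to carry food together with bile and pancreatic enzymes. The ileum is known for taking up bile acids and vitamin B12 and for endocrine cells that release glucagon-like peptide 1 and peptide YY, while the jejunum digests and absorbs most sugars, amino acids and fat. Expression along the small intestine changes with position, so a segment taken nearer to the jejunum differs from one nearer to the caecum also without surgery.

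The deposited table pairs its IDs with no gene names, and 0 of its 32883 IDs were found in the RefSeq gene table at hand. IDs are therefore given as deposited, without symbol, function or genome position. For the same reason the labelled segments could not be checked against marker genes, and markers of muscle, nerve, immune or pancreatic cells were not measured here. In RNA from bulk tissue, fewer cells of a type and less RNA per cell cannot be told apart. Total counts per library were 27731157 to 34488222 in RYGB_CL and 23701208 to 27936398 in Sham_IL. Of the IDs, 22132 had a count in at least 1 of the 6 libraries, and 16146 passed the filter on low counts in the 12 libraries of the cohort. The most abundant ID held 1.23% to 2.22% of a library's counts, and no library was dominated by a few IDs. Levels are given as CPM, the counts scaled to a common library size, and changes as log2 of RYGB_CL over Sham_IL.

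No ID passed the test between common limb and sham ileum (0 of 16146, 0% called, at an adjusted p under 0.05 in edgeR's quasi-likelihood test). The lowest adjusted p was 0.0778. At an unadjusted p under 0.05 there were 1268 IDs (7.85%), 798 of them (4.94%) with higher and 470 (2.91%) with lower levels in RYGB_CL. DESeq2, on the same counts, called 93 of 16087 IDs (0.578%), 59 higher (0.367%) and 34 lower (0.211%). All 93 had an unadjusted edgeR p under 0.05. The 3 RYGB_CL libraries lay entirely above the 3 Sham_IL libraries in 50 of the 59, and entirely below in all 34. Over all IDs tested they lay entirely above in 9.34% and entirely below in 6.73%. Both tests used the same counts, so these shares follow largely from the choice of the 93 and are no separate support. The median edgeR log2 change was 1.82 among the 59 and -1.29 among the 34, and their edgeR adjusted p ran from 0.0778 to 0.493.

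Most IDs differed little in level. Over all IDs tested the median log2 change was 0.0463, and 80% of IDs lay between -0.47 and 0.56 (the lowest and highest deciles). The median standard error of a log2 change was 0.28, so that a typical difference was about as large as its error. Precision depended on depth: the median standard error was 0.69 for IDs under 1 CPM, 0.36 from 1 to 10 CPM, 0.21 from 10 to 100 CPM and 0.21 at 100 CPM or more. A 2-fold difference in an ID under 1 CPM was thus within reach of counting and sampling error. No ID had at least 10 counts in each library of one group and 0 in each library of the other. At a minimum of 1 count, 35 of the 22132 IDs counted here were in every RYGB_CL and no Sham_IL library. The other way round there were 47.

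The groups did not overlap, with every RYGB_CL library above every Sham_IL library, in 1508 IDs (9.34%), and with every one below in 1087 IDs (6.73%). The share of higher IDs among those without overlap depended on the scaling: it was 58.1% with TMM, 58.0% with DESeq2 size factors and 46.8% with upper-quartile scaling (1191 higher, 1354 lower). Among the IDs at an unadjusted p under 0.05 the share that was higher was 62.9%, 64.2% and 53.0%, in the same order. It also differed by level. Under 1 CPM, 121 of 2397 IDs (5.05%) were higher and 193 (8.05%) lower without overlap. From 1 to 10 CPM the counts were 290 (6.62%) and 277 (6.32%) of 4383 IDs. From 10 to 100 CPM they were 869 (11.8%) and 470 (6.37%) of 7380 IDs, and at 100 CPM or more 228 (11.5%) and 147 (7.40%) of 1986. At a change of at least 2-fold there were 163 higher (1.01%) and 224 lower IDs (1.39%) without overlap, of which 70 and 121 were under 1 CPM. At least 4-fold there were 39 (0.242%) and 24 (0.149%).

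**Figure D1:**
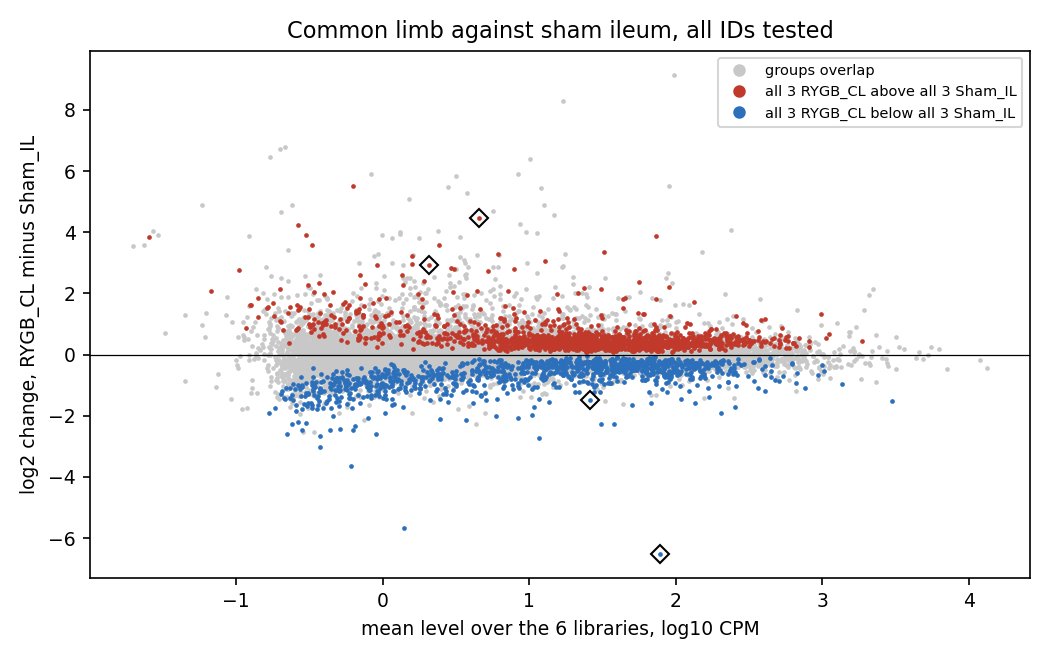
Each point is 1 of the 16146 IDs tested; the x axis is its mean level over the 6 libraries in log10 CPM and the y axis the log2 change of RYGB_CL over Sham_IL. Red and blue points are the 1508 and 1087 IDs whose groups did not overlap, grey points overlapped, and diamonds mark the 4 IDs given by library in the text; of the 82 IDs at 2 CPM or more that were at least 4-fold higher, 63 are grey.

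ENSRNOG00000015850 had the lowest p of all IDs. It stood at 2.88, 3.49 and 4.65 CPM in RYGB_CL libraries 1-1, 2-3 and 15-29, and at 0.334, 0.706 and 0.377 CPM in Sham_IL libraries 8-15, 14-28 and 15-30. The lowest common limb library lay above every sham ileum library. The log2 change was 2.94 (SE 0.38), a 7.68-fold difference, with an adjusted p of 0.0778 (edgeR). In the upper gut of the same cohort, Sham_JEJU held 5.75 to 8.64 CPM and RYGB_AL 3.79 to 7.14 CPM. The common limb values of this ID thus lay between those of sham ileum and sham jejunum.

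ENSRNOG00000024848 showed the same order with a wider spread. Its levels were 4.28 and 2.93 CPM in RYGB_CL 1-1 and 2-3 and 18.9 CPM in 15-29, against 0.632, 0.336 and 0.206 CPM in Sham_IL 8-15, 14-28 and 15-30, where the libraries held 17, 10 and 6 counts. The groups did not overlap, but library 15-29 was far above the other two. The log2 change was 4.47 (SE 0.72, adjusted p = 0.247, edgeR), and 3.21 without 15-29. Sham_JEJU held 12.1 to 18.3 CPM and RYGB_AL 79.6 to 118 CPM. All common limb libraries but 15-29 were below both of these ranges, and 15-29 lay just above the sham jejunum.

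ENSRNOG00000006010 was the ID with the lowest p among those with lower levels. It was at 12.7, 18.4 and 10.03 CPM in RYGB_CL 1-1, 2-3 and 15-29 and at 48.3, 35.1 and 32.2 CPM in Sham_IL 8-15, 14-28 and 15-30. The log2 change was -1.49 (SE 0.23, adjusted p = 0.195, edgeR), with no overlap. Sham_JEJU, at 15.96 to 18.2 CPM, was in the range of the common limb. RYGB_AL was lower than sham jejunum too, at 5.54 to 6.12 CPM, and the difference from the matching sham segment was alike in size there (log2 change -1.57, SE 0.23). The difference between these changes was 0.0806 (SE 0.32, adjusted p = 0.955, edgeR).

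ENSRNOG00000020899 was found almost only in sham ileum. Sham_IL 8-15, 14-28 and 15-30 held 56.2, 262 and 146 CPM, while RYGB_CL 1-1, 2-3 and 15-29 held 0.782, 4.07 and 0.0352 CPM, from 25, 161 and 1 counts. Every sham ileum library was over 10-fold above every common limb library. The log2 change was -6.52 (SE 1.08, adjusted p = 0.247, edgeR) and -8.50 without RYGB_CL 2-3. In Sham_JEJU the ID had 1 count in 3 libraries, and RYGB_AL held 0.344 to 1.69 CPM. The common limb was thus closer to the upper gut than to sham ileum for this ID.

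DESeq2 called these 4 IDs, with adjusted p-values of 1.63e-09 for ENSRNOG00000015850, 7.65e-10 for ENSRNOG00000024848, 1.4e-05 for ENSRNOG00000006010 and 0.000997 for ENSRNOG00000020899. Over all alternatives the adjusted p reached 0.661, 0.778, 0.721 and 0.778, in the same order. They were taken from 75 higher and 72 lower IDs with a mean of at least 2 CPM, no overlap and at least a 2-fold change. Of these, 70 and 64 had an unadjusted edgeR p under 0.05, against 7.85% of all IDs tested. Choosing by no overlap and fold change favours low p-values, so these counts are no support. The median log2 change of the 75 and the 72 was 1.34 and -1.23.

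**Figure D2:**
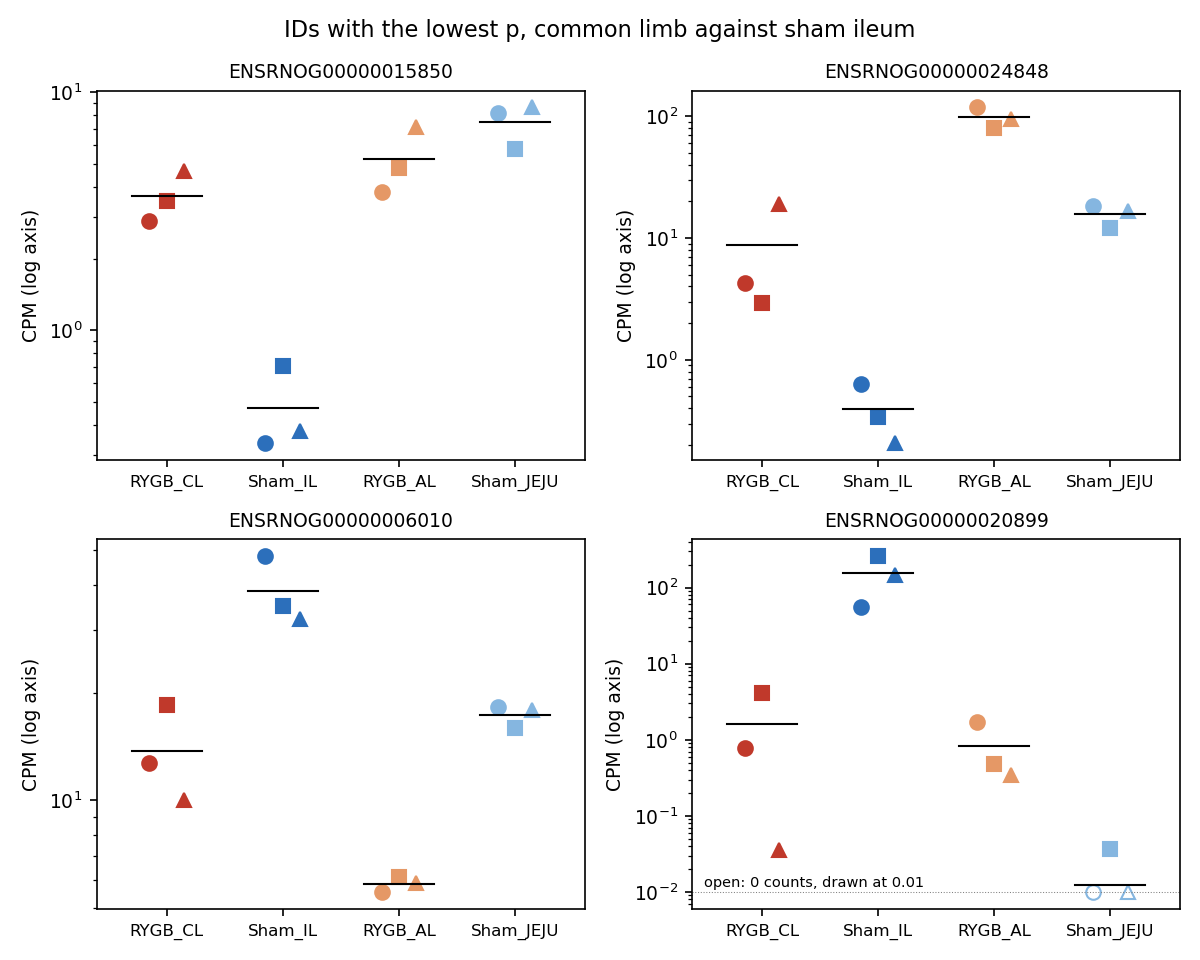
Levels of the 4 IDs in each of the 12 libraries of the cohort, in CPM on a log axis, with a line at the group mean of 3; circles, squares and triangles are RYGB libraries 1-1, 2-3 and 15-29 or sham libraries 8-15, 14-28 and 15-30. The IDs were chosen for groups without overlap, so in each panel the 3 RYGB_CL points lie entirely above or below the 3 Sham_IL points. Open symbols are libraries with 0 counts, drawn at 0.01.

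Among the largest differences, many of the higher ones were those of 1 library, most often RYGB_CL 1-1. Among the 12712 IDs with a mean of at least 2 CPM, 82 (0.645%) were at least 4-fold higher in RYGB_CL and 9 (0.0708%) at least 4-fold lower. In 8 of the 9 lower IDs the groups did not overlap, but this held for 19 of the 82 higher ones. Of the 82, 53 had their highest level in RYGB_CL 1-1, 19 in 15-29 and 10 in 2-3. In 37 of them 1-1 was at least 4-fold above both other common limb libraries, against 7 for 2-3 and 4 for 15-29. Library 1-1 lay above every sham ileum library in 75 of the 82 IDs, 15-29 in 46 and 2-3 in 33. Without RYGB_CL 1-1 there were 40 IDs at least 4-fold higher, against 122 without 2-3 and 102 without 15-29. Leaving out 1 Sham_IL library gave 88 to 119. The lower ones rose from 9 to 36 without 2-3 and numbered 7 to 13 in the other fits. These IDs were chosen by their size of change, so the counts describe the libraries and are no test.

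The common limb libraries differed from each other as much as from sham ileum. Over 12588 IDs with a mean of at least 2 CPM in the cohort, the median absolute log2 difference between 2 libraries was 0.293 to 0.344 within RYGB_CL and 0.213 to 0.235 within Sham_IL. Between a RYGB_CL and a Sham_IL library it was 0.261 to 0.374, with a median of 0.308 over the 9 pairs. The median SD of an ID's log2 level was 0.285 in RYGB_CL and 0.191 in Sham_IL, against 0.232 in RYGB_AL and 0.294 in Sham_JEJU. IDs that departed over 2-fold from the other libraries of their group numbered 1083 in RYGB_CL 1-1, 1154 in 2-3 and 1042 in 15-29. They were fewer in Sham_IL, with 241 in 8-15, 420 in 14-28 and 649 in 15-30. No 2 of the 6 libraries agreed within counting noise, as the lowest chi-square per degree of freedom was 47.9.

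Among the fits with 1 library left out, edgeR called the most IDs without RYGB_CL 2-3. There were 56 of 16243 IDs tested, 40 of them higher and 16 lower. The library left out showed little of these changes: its median log2 difference from the sham ileum mean was 0.0182 over the 40 higher IDs, where the fit of the other libraries gave 2.14, and -0.41 over the 16 lower IDs, where it gave -2.32. In 36 of the 56 IDs 2-3 lay on the same side of the sham ileum mean as the other common limb libraries, and in 17 it lay within the sham ileum range. IDs called without a library are in part those on which it disagrees, so these values describe 2-3 and do not measure how often the changes recur. Without 15-29, ENSRNOG00000024848 was the single ID called, and 0 were called without 1-1 or without any 1 of the Sham_IL libraries. At an unadjusted edgeR p under 0.05 there were 742 of 16557 IDs without Sham_IL 8-15, against 1268 of 16146 (7.85%) in the full fit. Leaving out any other library of the 6 gave 1056 to 1483.

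Position between the sham segments was described with an index of IDs that separate them. It is the mean log2 level of 100 IDs higher in Sham_IL minus that of 100 IDs higher in Sham_JEJU, the IDs of lowest p on each side, scaled to 0 at sham jejunum and 1 at sham ileum. The IDs were chosen anew with each sham number left out, and each sham library was scored with IDs picked without it. In the full cohort 444 IDs (2.75%) were higher and 1045 (6.47%) lower in Sham_IL than in Sham_JEJU (edgeR, adjusted p under 0.05). Sham_IL 8-15, 14-28 and 15-30 were at 0.913, 0.876 and 1.00, and RYGB_CL 1-1, 2-3 and 15-29 at 0.573, 0.749 and 0.440. All 3 common limb libraries lay below all 3 sham ileum libraries, with means of 0.587 ± 0.155 and 0.930 ± 0.0656 (SD, n = 3 each). RYGB_AL, at 0.0938 to 0.204, was within the range of Sham_JEJU, -0.0694 to 0.304. With 50 or 200 IDs on each side the common limb mean was 0.579 and 0.597.

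The index was built from the sham libraries that are also the control of the comparison, so it gets no test here. With the sampling site unstated, a more proximal site and an effect of surgery on segment identity cannot be told apart.

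**Figure D3:**
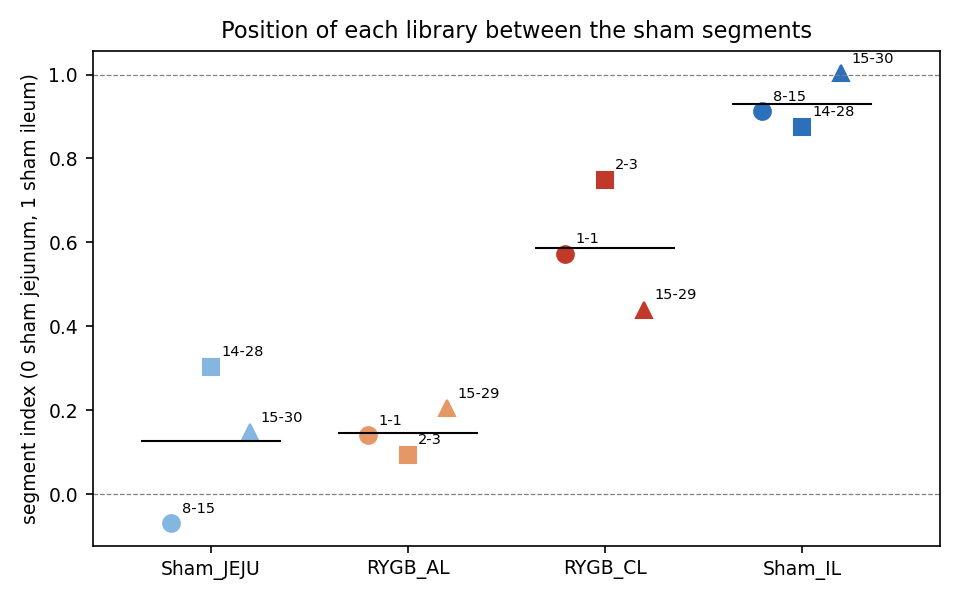
Segment index of each of the 12 libraries (y axis, 0 at sham jejunum and 1 at sham ileum, dashed) by group, with its library number and a line at the group mean. The 3 RYGB_CL libraries, at 0.440 to 0.749, sit between the sham groups, below the 3 Sham_IL libraries at 0.876 to 1.00.

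The difference from sham in the common limb was then set against that in the alimentary limb. These limbs have no library in common but carry the same numbers. RYGB_AL lay entirely above Sham_JEJU in 2171 IDs (13.4%) and entirely below in 2123 (13.1%), against the 9.34% and 6.73% in the common limb. Of the 1508 common limb IDs higher without overlap, 225 were so in the alimentary limb too, 14.9% of the first list and 10.4% of the second. This share of 14.9% is near the 13.4% of all IDs. For lower IDs it was 209, 19.2% of the common limb list and 9.84% of the alimentary list, where 13.1% of all IDs were lower in the alimentary limb. Opposite directions were met in 74 (4.91%) of the higher and 69 (6.35%) of the lower common limb IDs. Both shares were below those of all IDs, of which 13.1% were lower and 13.4% higher in the alimentary limb. Whether libraries of one number come from one rat is not stated, and these shares were not tested.

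The change against sham differed between limbs in 98 of 16146 IDs (0.607%, edgeR test of the difference, adjusted p under 0.05). In 82 (0.508%) the common limb change was the lower one, and in the other 16 (0.0991%) the higher one. Of the 82, the common limb change was within 2-fold in 77, or 93.9%, where it was so in 93.8% of all IDs tested. RYGB_CL and Sham_IL overlapped in 64 of the 82, or 78.0%, against 83.9% of all IDs, so both shares were near those of all IDs. Of the 16, the change was within 2-fold in 12, or 75%, and the groups overlapped in 10, or 62.5%. Among these 16 both shares were below the 93.8% and 83.9% of all IDs. The 82 and the 16 were picked by a test that includes the common limb change. Their shares therefore depend on that choice and are no test. The count of 98 depended on single libraries. It was 8 without Sham_IL 8-15, 12 without Sham_IL 15-30, 36 without Sham_IL 14-28 and 45 without RYGB_CL 1-1. These fits tested 16496 to 16623 IDs. The count was also 12 without RYGB_AL 15-29, 19 without RYGB_AL 2-3, 15 without Sham_JEJU 14-28, 46 without Sham_JEJU 15-30 and 50 without Sham_JEJU 8-15. DESeq2 called 568, of which 345 had the lower and 223 the higher common limb change. Without RYGB_CL 2-3 the split was 80 lower and 47 higher.

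**Figure D4:**
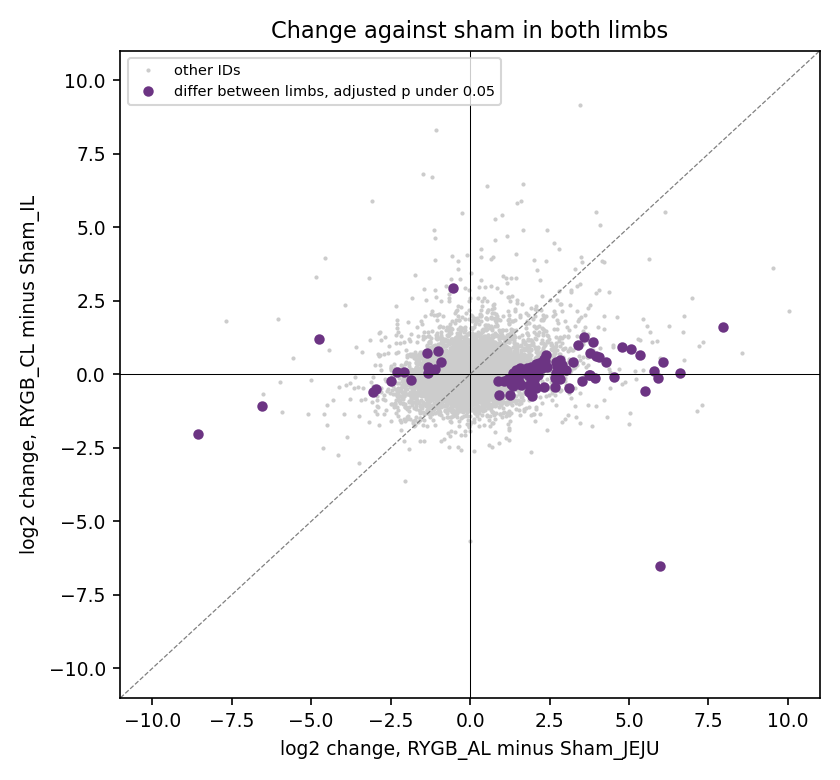
Log2 change of the alimentary limb against sham jejunum (x axis) and of the common limb against sham ileum (y axis) for each ID tested; purple points are the 98 IDs whose changes differed between limbs. Of the 82 purple points with a lower common limb change, 77 are within 2-fold on the y axis, as are 93.8% of all IDs.

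ENSRNOG00000058111 was called for a lower common limb change. RYGB_CL 1-1, 2-3 and 15-29 held 71.6, 55.5 and 61.0 CPM and Sham_IL 8-15, 14-28 and 15-30 held 68.0, 78.8 and 107 CPM, which overlapped. In the alimentary limb the level was 280 to 323 CPM, against 57.0 to 65.8 CPM in Sham_JEJU. The log2 change was -0.43 (SE 0.18) in the common limb and 2.32 (SE 0.19) in the alimentary limb, a difference of -2.75 (SE 0.26, adjusted p = 0.0016, edgeR). The high level was thus measured in RYGB_AL alone among the 4 groups.

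ENSRNOG00000010626 had the same pattern. Its common limb levels of 7.69, 7.54 and 11.8 CPM overlapped with 12.2, 10.9 and 8.74 CPM in sham ileum, while RYGB_AL reached 77.7 to 120 CPM from 6.57 to 10.2 CPM in Sham_JEJU. Between limbs the log2 changes differed by -3.74 (SE 0.36), with an adjusted p of 0.0016 in edgeR. Both of these IDs kept their call under all 19 alternatives, with an adjusted p of at most 0.0125.

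ENSRNOG00000051171 was lower than in the matching sham segment in both RYGB limbs, to unequal degree. It was at 1.44, 3.79 and 1.80 CPM in RYGB_CL 1-1, 2-3 and 15-29 and at 9.25, 8.78 and 10.6 CPM in Sham_IL 8-15, 14-28 and 15-30, a log2 change of -2.02 (SE 0.49, adjusted p = 0.458, edgeR) without overlap. RYGB_AL held 5, 0 and 1 counts, at most 0.148 CPM, where Sham_JEJU held 12.3 to 30.6 CPM. The difference between limbs was 6.53 (SE 0.87, adjusted p = 0.0143, edgeR). This call was lost without RYGB_AL 15-29 (adjusted p = 0.0609, edgeR), without Sham_IL 8-15 (0.0568) and with the library number as a random block (0.0537, limma).

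ENSRNOG00000006359 had changes of opposite sign in the limbs. The common limb held 14.8, 12.1 and 18.9 CPM against 7.84, 10.3 and 8.16 CPM in sham ileum, a log2 change of 0.80 (SE 0.18, adjusted p = 0.458, edgeR) without overlap. The alimentary limb held 19.1 to 21.2 CPM against 37.3 to 43.5 CPM in sham jejunum, with means of 20.1 and 40.2 CPM. Both RYGB limbs were thus between the levels of sham jejunum and sham ileum. The difference was 1.81 (SE 0.26, adjusted p = 0.0176, edgeR). This call was lost without RYGB_AL 15-29 (adjusted p = 0.0619, edgeR), without Sham_IL 8-15 (0.0568) and without Sham_IL 15-30 (0.0595).

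**Figure D5:**
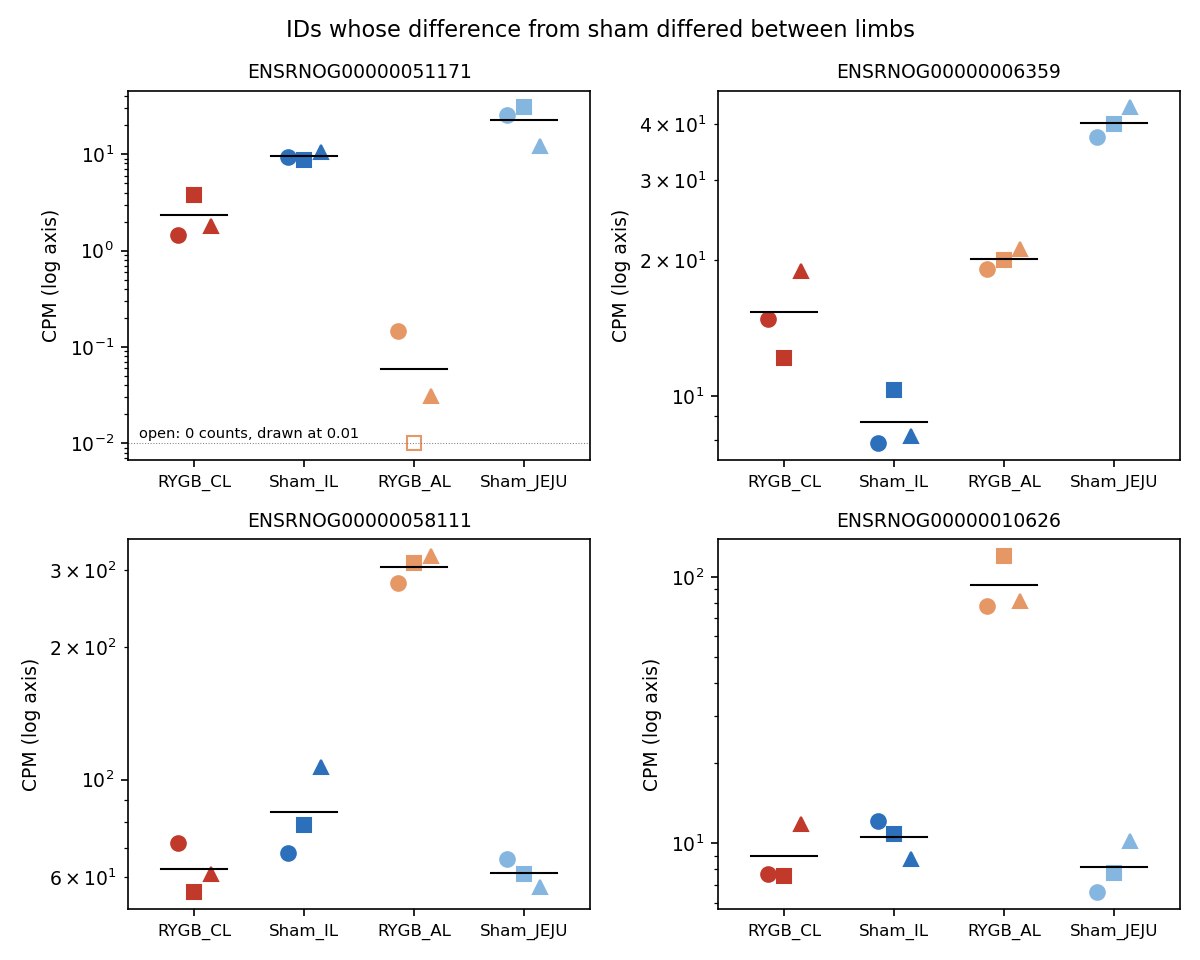
Levels in CPM on a log axis, in the 12 libraries of the cohort, of the 4 IDs given for the difference between limbs, with a line at each group mean of 3; symbols stand for library numbers in the order 1-1, 2-3, 15-29 (RYGB) and 8-15, 14-28, 15-30 (sham). In the lower panels RYGB_AL, at 280 to 323 and 77.7 to 120 CPM, is above the other 3 groups.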

How the data were processed

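Total RNA was column-purified and made into stranded libraries after removal of ribosomal RNA, per the labels' protocols. FastQC, STAR and rat build rn6 are named in the submitters' processing notes; no counting tool, annotation, strand setting or treatment of ambiguous reads is named there, so near-identical or overlapping genes may share reads. The deposited values are whole-number counts per Ensembl ID, not normalized.

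The 12 libraries RYGB_AL, Sham_JEJU, RYGB_CL and Sham_IL (3 each; 23701208 to 49319824 counts each) were fitted together in R 4.3.3 with edgeR 4.0.16, after filterByExpr (10 counts, 15 in total), with TMM scaling, robust quasi-likelihood fit with a shared spread (biological coefficient of variation 0.314) and Benjamini-Hochberg adjustment over all 16146 IDs, threshold 0.05. SEs are the log2 change over the root of F. Log2 levels use a prior count of 2. Alternatives were DESeq2 1.42.0, its size factors, upper-quartile scaling, no filter, no robust shrinkage, only the 6 libraries, each library left out, and library number as a block (edgeR, or limma 3.58.1 with voom).

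The labels describe no origin of replicates beyond their numbers and no batch, so the p-values cover only how these libraries vary, which may be technical. IDs named are the 2 of lowest p in each direction with at least 2 CPM on average, no overlap and a 2-fold change; for the difference between limbs, the 2 of lowest p in each direction at 2 CPM. This is the fallback of a rule for named genes; gene lists made for it could not be applied, as IDs have no symbols. Members, lists and rules were chosen with earlier results of these data known. The segment index and the 4-fold counts were added after the data were seen.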

Additional observations from a re-analysis of the deposited data

Results flagged for a closer look

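The change against sham differed between the common and the alimentary limb in 98 IDs by the test of the difference itself (edgeR, adjusted p under 0.05). Among those named, the log2 difference was 6.53 for ENSRNOG00000051171, 1.81 for ENSRNOG00000006359, -2.75 for ENSRNOG00000058111 and -3.74 for ENSRNOG00000010626. ENSRNOG00000015850, the ID of lowest p in the common limb, also differed between limbs, by 3.46 (SE 0.50, adjusted p = 0.0176, edgeR), with a higher level than sham in the common limb and an alimentary change of -0.52 (SE 0.33). ENSRNOG00000020899 differed by a fitted -12.50 (adjusted p = 0.031, edgeR), a size that rests on 1 count in the Sham_JEJU libraries: RYGB_AL held 88 counts, which per scaled library size is 87.2 times the Sham_JEJU level (95% interval 15.2 to 3481, exact binomial, counting error only). In the common limb this ID was lower than in sham ileum (adjusted p = 0.247, edgeR). In the alimentary limb it was above sham jejunum, with a log2 change of 5.98 (SE 2.10, adjusted p = 0.115, edgeR). Neither change passed the threshold of 0.05 by itself.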

How the results depend on the processing

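For RYGB_CL against Sham_IL, 0 IDs were called under 9 of 13 alternatives; DESeq2 called 93, and 1 was called with no low-count filter (ENSRNOG00000015850, adjusted p = 0.0267, edgeR). Leaving out 1 library gave 0 to 56 calls. For the difference between limbs the main count of 98 became 568 with DESeq2 and 8 to 127 with 1 library left out; the other scalings, no filter and no robust shrinkage gave 93 to 106. The cause was not tested. All 8 named IDs kept their direction under each alternative run, in the comparison each was named for. ENSRNOG00000051171 and ENSRNOG00000006359 each lost the call between limbs in 3 of 19. The differences between limbs of ENSRNOG00000015850 and ENSRNOG00000020899 were not run under the alternatives. RYGB_CL and Sham_IL share no full library number; 1 library of each begins with 15 (15-29 and 15-30), too few for a fixed block. With the number as a random replicate block (limma voom, consensus correlation 0.0363), 0 IDs were called there (1144 at an unadjusted p under 0.05) and 75 between limbs, and a fixed replicate block (edgeR) gave 69. Deviations of libraries with one number correlated between limbs by -0.0655 (1-1), 0.318 (2-3), 0.226 (15-29), 0.0213 (8-15), 0.12 (14-28) and 0.101 (15-30). Of the 6, 3 correlated best with their own number, and 15-29 missed this narrowly, at 0.226 against 0.228. With 3 libraries per group this cannot decide whether a number pairs samples. The main fit has no block because RYGB_CL and Sham_IL share no number. TMM without mitochondrial genes and the gene lists were not run, since IDs have no names. IDs under 1 CPM, with a median SE of 0.69, are where depth limits the comparison most.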
